A study of Mus musculus with 6 samples.

Results

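The 10 genes described here encode receptors that restrain or tune myeloid cells, together with 1 ligand: Cd200r1, Cd200r2, Cd200r3, Cd200r4 and Cd200, the sialic acid receptors Siglece, Siglec1 and Cd33, the CD47 receptor Sirpa, and the paired receptor Pilra. They were chosen by gene family from the array's platform annotation, with the differences between the groups of these same arrays already known, so their values are given as a description, with the fit's call but without p-values. Each of the 10 had 1 probe with a single gene symbol, out of 19935 genes tested. Macrophages of the peritoneal cavity of C57BL/6 mice, cultured in DMEM with serum, had been treated for 24 h with poly I:C at 2 ug/mL, treated for 24 h with PAM at 1 ug/mL, or left untreated as the control, for which the labels give no culture time. Poly I:C is a synthetic double-stranded RNA sensed by TLR3, and PAM is a lipopeptide sensed by TLR2, whose samples are labelled PAMCSK3 and PAMCSK4 in the submitters' descriptions. Each of the 3 groups held 2 arrays, and the labels do not say whether these came from separate mice or cultures, so errors measure the spread between samples, which may be technical. The stated purpose of the series was to find genes that a TLR3 stimulus raised and a TLR2 stimulus lowered.

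CD200 is a surface protein that engages CD200R1 on myeloid cells, which dampens activation through DOK adaptors and Ras GTPase-activating protein. Cd200r3 and Cd200r4 encode relatives of CD200R1 with short tails that signal through the activating adaptor DAP12, encoded by Tyrobp. Siglecs bind sialic acids on glycans, and Siglec-E and SIRP alpha recruit the phosphatases SHP-1 and SHP-2 through tyrosine motifs in their tails. SIRP alpha binds CD47, by which target cells limit their own uptake, and PILR alpha is the inhibitory member of a receptor pair whose activating member is PILR beta.

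Values are log2 values relative to the mean of the 2 control arrays, and differences are given ± SE from one fit over all 6 arrays. The deposited numbers had each probe's median subtracted, so they show changes and not levels, and no gene's level can be set against another's. Folds assume that the logarithm is to base 2. A gene is said to have passed when its p-value from limma, adjusted over all genes, was under 0.05. A mark of level survives in the size of the number steps in the file. Fine steps show that an uncentred value was below 8, while coarse steps can also come from a value below 8 by chance and so prove no level. Probes with coarse steps on all 6 arrays are called coarse-stepped here, and these were 92.6% of ribosomal protein probes and 1.35% of olfactory receptor probes. Of the 10 genes 6 were coarse-stepped, and Cd200r2, Cd200r3, Siglece and Siglec1 were not. So were 8 of 12 macrophage markers, among them Adgre1, Csf1r, Cd68 and Lyz2, but also 4 of 10 mesothelial and fibroblast markers (Col3a1, Col1a1, Col1a2 and Pdgfra), 2 of 9 dendritic cell markers and 1 of 7 T and NK cell markers. None of 7 B cell, 11 mast cell and basophil, 9 neutrophil or 5 eosinophil markers was.

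With poly I:C, 6 of the 10 genes were higher than in control cells and 3 were lower, where 12.1% of all genes tested were higher and 18.2% lower. With PAM, 3 were higher and 5 lower, where 11.0% of all genes were higher and 14.0% lower. Between the ligands all 10 passed, 6 higher and 4 lower with poly I:C than under PAM, where the shares of all genes were 12.9% and 15.8%. The median difference of the 10 genes was 0.29 with poly I:C, against 0.01 over all genes, and -0.21 with PAM, against -0.0015 over all genes. Since the genes were picked with these contrasts known, nothing is read from these counts. Poly I:C and PAM were both set against the same 2 control arrays.

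**Figure D1:**
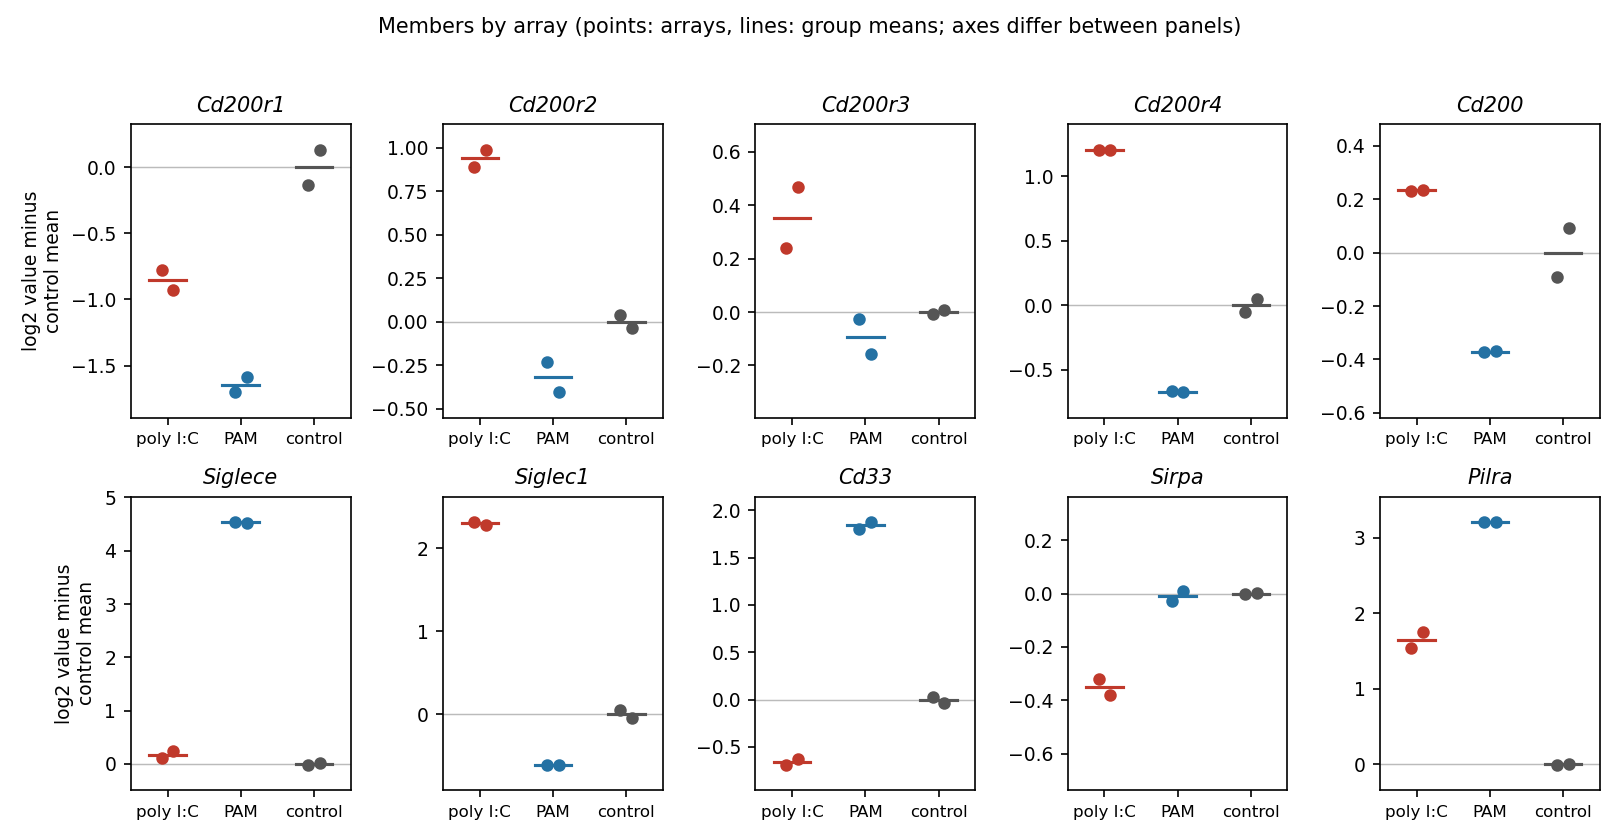
Log2 value of each gene relative to the control mean (vertical axis, scaled for each panel) on the poly I:C, PAM and control arrays. Points are single arrays and lines are group means of 2 arrays. Siglece stands near 4.5 on both PAM arrays and Siglec1 near 2.3 on both poly I:C arrays, while Cd200r1 lies below the control arrays with both ligands.

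Among the Cd200 receptors, Cd200r1 was lower with poly I:C while the other 3 were higher. With PAM, Cd200r1, Cd200r4 and Cd200r2 were all lower and Cd200r3 did not pass. Cd200r1 stood at -0.78 and -0.93 on the poly I:C arrays, at -1.70 and -1.59 on the PAM arrays, and at -0.13 and 0.13 on the control arrays. The 3 groups did not overlap, with the PAM arrays lowest. Cd200r1 fell by 0.85 ± 0.10 with poly I:C, which is 1.81-fold lower, and by 1.65 ± 0.10 with PAM, which is 3.13-fold lower. In bulk RNA, fewer cells carrying a transcript and less of it in each cell cannot be told apart, here and in the results that follow.

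Cd200r4, for a DAP12-coupled receptor, stood at 1.20 and 1.21 on the poly I:C arrays, at -0.67 and -0.67 on the PAM arrays, and at -0.05 and 0.05 on the control arrays. Arrays of one group lay close together, and the ligands fell on opposite sides of the controls. Cd200r4 rose by 1.21 ± 0.07 with poly I:C (2.31-fold) and fell by 0.67 ± 0.07 with PAM, so that it was 3.67-fold higher with poly I:C than under PAM. Cd200r2, a further member of the family, gave 0.89 and 0.99 with poly I:C, -0.23 and -0.41 with PAM, and 0.04 and -0.04 in control cells. It rose by 0.94 ± 0.08 with poly I:C and fell by 0.32 ± 0.08 with PAM. The pattern was that of Cd200r4 in direction and smaller in size, and its PAM call was lost without PAM replicate 2 (-0.23) or without control replicate 1 (-0.28).

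Cd200r3, known from mast cells and basophils, gave 0.24 and 0.47 with poly I:C, -0.03 and -0.16 with PAM, and -0.01 and 0.01 in control cells. It rose by 0.35 ± 0.09 with poly I:C, a call that was lost without poly I:C replicate 2 (0.24), and the PAM difference of -0.09 ± 0.09 did not pass. Of 11 mast cell and basophil markers, 1 passed with poly I:C, the histidine decarboxylase gene Hdc at 1.25 ± 0.10, while the 11 differences ranged from -0.20 to 1.25 and had a median of 0.05. No marker of this list passed with PAM by limma. The part of such cells in the Cd200r3 value was not tested.

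Cd200, the ligand, changed less than Cd200r4. It gave 0.23 and 0.24 with poly I:C, -0.37 and -0.37 with PAM, and -0.09 and 0.09 in control cells. It rose by 0.23 ± 0.08 with poly I:C and fell by 0.37 ± 0.08 with PAM, and was 1.52-fold higher with poly I:C than under PAM. The poly I:C call was lost in 6 of 11 distinct alternatives, among them leaving out either poly I:C array, the fit without the PAM arrays, and leaving out control replicate 1, without which the difference was 0.14.

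The Cd200 receptor genes follow one another on chromosome 16 in the order Cd200r1, Cd200r4, Cd200r2 and Cd200r3, with no protein-coding gene between them in the RefSeq table. Cd200 lies beyond Ccdc80, Slc35a5, Atg3 and Btla. None of these 4 genes passed as higher with poly I:C, with which Cd200r1 was lower and the other genes of the family were higher. Ccdc80 fell with both ligands (-1.05 ± 0.13 with poly I:C and -1.12 ± 0.13 with PAM). Slc35a5 fell by 0.33 ± 0.08 with PAM, and Atg3 and Btla passed with neither. Because the receptor genes are close relatives, part of their signal may be shared between probes, and this was not tested, since the probe sequences were not used here.

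RefSeq promoter windows of GRCm38.p6, 250 bases before to 50 after a start site, were found for 7 of the 10 genes, and the windows of Cd200r4 and Cd200r3 are shown because they are the pair with most sequence in common. Among all 21 pairs of windows they had the longest identical run, of 32 bases. A stretch of 156 bases aligned between them without gaps and was identical at 140 positions (89.7%), and capitals mark that stretch. It lies at window positions 144 to 299 in Cd200r4, across the start site, and 70 to 225 in Cd200r3, wholly before the start site. The Cd200r4 window is chr16:44820478-44820777 on the plus strand, and the Cd200r3 window is chr16:44943428-44943727 on the plus strand. Both genes were higher with poly I:C, Cd200r4 by 1.21 and Cd200r3 by 0.35. With PAM, Cd200r4 was lower (-0.67) and Cd200r3 did not pass (-0.09). The Cd200r2 window, of a gene that was also higher with poly I:C, had no such stretch in common with either. Whether the stretch bears on any of these changes was not tested.
Cd200r4: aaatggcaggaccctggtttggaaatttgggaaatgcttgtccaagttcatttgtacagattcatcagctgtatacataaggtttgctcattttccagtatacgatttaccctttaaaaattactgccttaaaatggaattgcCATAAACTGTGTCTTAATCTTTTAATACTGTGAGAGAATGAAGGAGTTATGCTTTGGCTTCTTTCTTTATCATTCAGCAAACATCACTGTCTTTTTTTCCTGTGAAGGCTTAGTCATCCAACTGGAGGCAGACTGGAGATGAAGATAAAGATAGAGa
Cd200r3: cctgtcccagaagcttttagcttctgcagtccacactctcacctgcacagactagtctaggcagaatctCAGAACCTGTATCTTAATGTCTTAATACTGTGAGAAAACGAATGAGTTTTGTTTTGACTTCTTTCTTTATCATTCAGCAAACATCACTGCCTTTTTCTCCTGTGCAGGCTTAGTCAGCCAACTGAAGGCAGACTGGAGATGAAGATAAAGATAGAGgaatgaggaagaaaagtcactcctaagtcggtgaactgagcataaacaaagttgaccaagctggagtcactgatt

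Siglece, for the main inhibitory Siglec of mouse myeloid cells, stood at 4.54 and 4.52 on the PAM arrays and at -0.01 and 0.01 on the control arrays. The poly I:C arrays stood at 0.11 and 0.25. The PAM arrays lay far above both other groups. Siglece rose by 4.53 ± 0.07 with PAM, which is 23.1-fold, and its poly I:C difference of 0.18 ± 0.07 did not pass. It was 20.5-fold lower with poly I:C than under PAM. The number steps placed poly I:C replicate 2 below 8 before centring, and the other poly I:C array and both control arrays were lower still.

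Neutrophils also express Siglece, and 2 of 9 neutrophil markers were higher with PAM, S100a8 at 2.04 ± 0.10 and Camp at 0.64 ± 0.12. Cxcr2 was the neutrophil marker that was lower, at -0.40, and the 9 differences had a median of -0.0028. None of the 9 neutrophil markers was coarse-stepped. Summed marker levels cannot be had from centred values, and the part of neutrophils in the Siglece value was not tested.

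Siglec1, for sialoadhesin (CD169), a macrophage receptor for sialylated glycans on cells and viruses, moved the other way from Siglece with PAM. It stood at 2.31 and 2.28 on the poly I:C arrays, at -0.61 and -0.61 on the PAM arrays, and at 0.04 and -0.04 on the control arrays. It rose by 2.30 ± 0.07 with poly I:C (4.92-fold) and fell by 0.61 ± 0.07 with PAM. The gap between the ligands was 2.91 ± 0.07, or 7.51-fold.

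Cd33, for Siglec-3, stood at -0.69 and -0.63 on the poly I:C arrays, at 1.81 and 1.88 on the PAM arrays, and at 0.03 and -0.03 on the control arrays. It fell by 0.66 ± 0.07 with poly I:C and rose by 1.84 ± 0.07 with PAM, which is 3.58-fold. Cd33 thus lay on the opposite side of the controls from Siglec1 with each ligand. Cd33 and Siglece lie on chromosome 7 with 4 protein-coding genes between them. Of these, Zfp658 (-0.41 ± 0.07 with poly I:C and 1.04 ± 0.07 with PAM) and Zfp719 (-0.64 ± 0.10 with poly I:C and 1.19 ± 0.10 with PAM) passed in the same directions as Cd33. Zfp819 and Ceacam18, which are nearer to Siglece, passed with neither ligand. All 4 are given because of their position, and not by size of change. The 12 macrophage markers did not move together beside Cd33. Adgre1 (-0.97 with poly I:C and 1.38 with PAM) and Cd14 (-1.28 and 2.39) had its directions, while Fcgr1 (2.65 and -1.72) and Mertk (0.22 and -1.23) had the opposite ones. Prg4 and Timd4 rose and Itgam and Gata6 fell with both ligands, Icam2 rose with poly I:C alone and Csf1r with PAM alone, and Cd68 and Lyz2 passed with neither. All 12 are listed whatever their change, and their part in the Cd33 value was not tested.

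**Figure D2:**
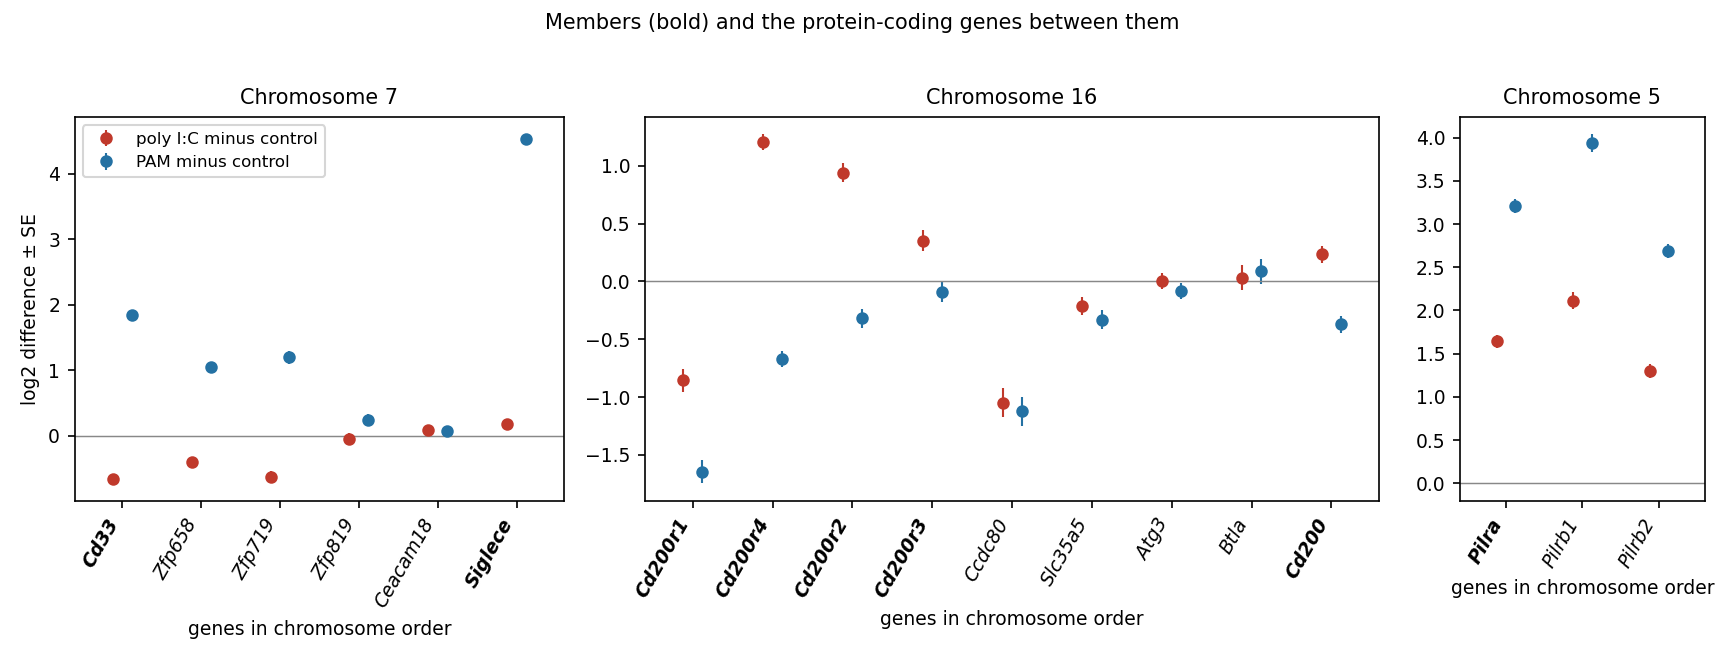
Log2 difference ± SE from the control arrays (vertical axis, scaled for each panel) with poly I:C and with PAM, for genes placed in chromosome order on chromosomes 7, 16 and 5. Members are in bold and protein-coding genes between them in regular type. Cd33, Zfp658 and Zfp719 lie below 0 with poly I:C and above 0 with PAM, and Pilra lies beside Pilrb1 and Pilrb2, which are above 0 with both ligands.

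Pilra was the gene of this set that rose with both ligands. It stood at 1.54 and 1.75 on the poly I:C arrays, at 3.20 and 3.21 on the PAM arrays, and at -0.01 and 0.01 on the control arrays. The groups did not overlap, with the PAM arrays highest. Pilra rose by 1.64 ± 0.08 with poly I:C (3.12-fold) and by 3.21 ± 0.08 with PAM (9.23-fold), and it was 2.95-fold lower with poly I:C than under PAM. Pilrb1 and Pilrb2, which encode the activating partners and follow Pilra on chromosome 5, rose as well. Pilrb1 rose by 2.11 ± 0.10 with poly I:C and by 3.94 ± 0.10 with PAM. Pilrb2 rose by 1.30 ± 0.08 and 2.69 ± 0.08. These genes are close relatives, so signal shared between their probes was not tested.

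Sirpa had group means that spanned 0.35, the least of the 10 genes. It gave -0.32 and -0.38 with poly I:C, -0.03 and 0.01 with PAM, and values within 0.0010 of their mean in control cells. It fell by 0.35 ± 0.06 with poly I:C, which is 1.27-fold lower, and the PAM difference of -0.01 ± 0.06 did not pass. The Sirpb1 relatives had probes with several gene symbols and were not given values.

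**Figure D3:**
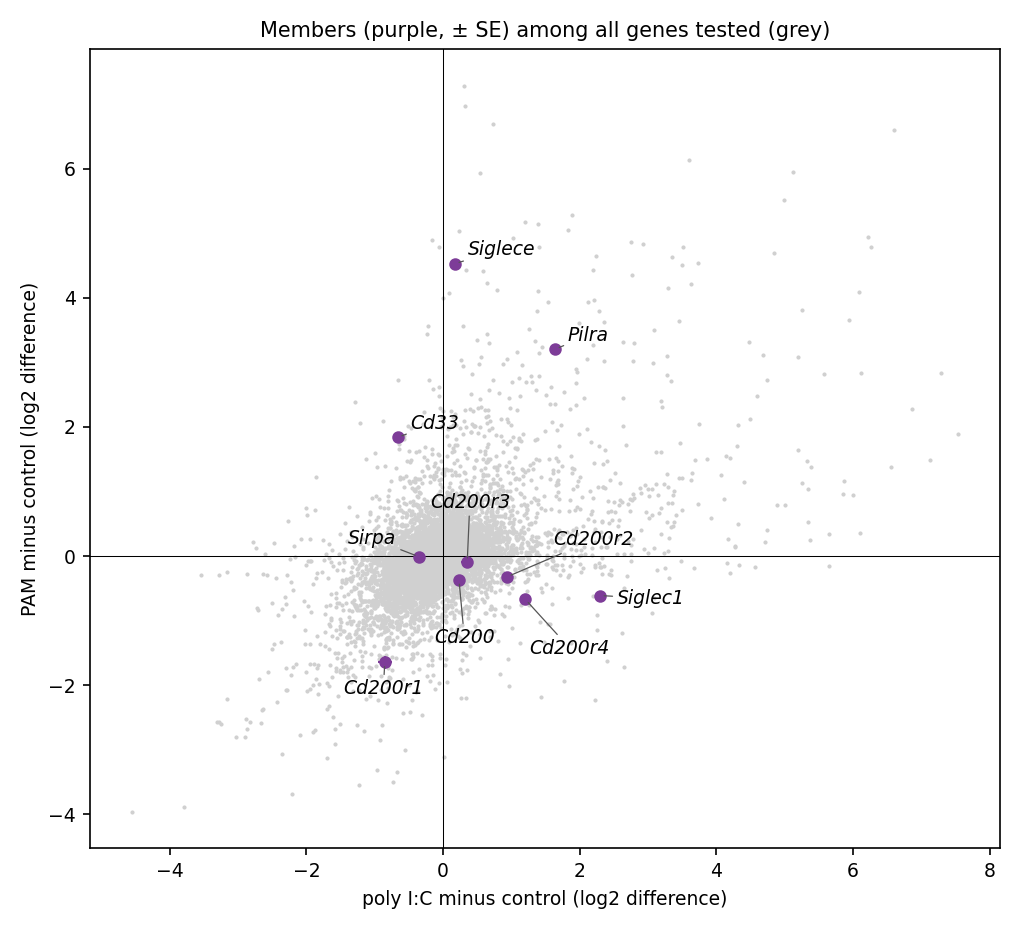
Log2 difference from control with poly I:C (horizontal axis) against that with PAM (vertical axis) for all 19935 genes tested (grey) and the 10 members (purple, ± SE, bars mostly smaller than the points). Siglece and Cd33 lie high and near or left of 0, Siglec1 and Cd200r4 lie right and below 0, and Cd200r1 lies low and left. Both axes share the 2 control arrays.

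The promoter windows were searched on both strands for the core of the interferon-stimulated response element (GAAA, any 2 bases, GAAA), a kappa-B motif (GGGA, any 2 bases, TTCC), a GAS motif TTCNNNGAA, an AP-1 motif TGANTCA and a PU.1-type ETS motif AGGAAGT. These occur in 3.44%, 1.47%, 8.3%, 7.81% and 9.35% of the 32851 windows in the table. Among the 7 windows, the first and the last motif occurred in that of Pilra and the others in none. Pilra's window is chr5:137836229-137836528 on the minus strand, and its matches, in capitals below, start at position -178 and position 3 from the start site. Siglece, whose change was the largest of the 10, is shown with it, from chr7:43660112-43660411 on the minus strand, and held none of the 5 motifs. A match is a run of letters and does not show binding, and an empty window says nothing of sites elsewhere.
Pilra: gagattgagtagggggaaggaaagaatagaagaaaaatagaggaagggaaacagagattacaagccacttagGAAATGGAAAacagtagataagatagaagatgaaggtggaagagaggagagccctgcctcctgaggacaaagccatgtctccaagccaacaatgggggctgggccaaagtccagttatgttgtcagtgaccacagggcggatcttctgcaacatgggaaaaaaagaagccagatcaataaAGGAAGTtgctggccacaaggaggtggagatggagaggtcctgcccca
Siglece: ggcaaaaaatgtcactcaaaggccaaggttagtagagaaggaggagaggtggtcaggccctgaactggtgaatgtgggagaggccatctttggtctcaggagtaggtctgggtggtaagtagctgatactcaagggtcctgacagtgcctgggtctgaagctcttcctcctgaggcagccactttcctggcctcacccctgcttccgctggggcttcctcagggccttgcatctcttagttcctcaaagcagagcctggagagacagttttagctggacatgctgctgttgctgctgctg

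For the 7 genes whose group means spanned at least 1, the 3 most similar genes were those at the smallest Euclidean distance over the 6 arrays, with each gene set to 0 at its control mean. Those of Siglece were Il6 (distance 0.37), Olr1 (0.63) and U90926 (0.66). Il6, the interleukin 6 gene, differed by 0.33 with poly I:C and 4.43 with PAM. Those of Siglec1 were Tpx2 (0.27), Tmem171 (0.47) and Slc28a2 (0.53), and those of Cd33 were Itga1 (0.24), Fam102b (0.24) and Gclm (0.29). Gclm, for a subunit of the enzyme that begins glutathione synthesis, differed by -0.64 with poly I:C and 1.67 with PAM. Those of Pilra were Tmeff1 (0.31), Ehd1 (0.37) and Osbpl3 (0.47). Those of Cd200r4 were Dusp1 (0.16), Lrp4 (0.17) and Csrp1 (0.19), those of Cd200r2 were Abcb1a (0.15), Zcchc2 (0.20) and Msi2 (0.21), and those of Cd200r1 were Rcbtb2 (0.18), Mettl7a1 (0.19) and Dock2 (0.22). Dusp1, a phosphatase gene that limits MAP kinases, stood at 1.21 with poly I:C and -0.60 with PAM.

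The partners of these receptors were described from 6 lists of genes. Among 9 measured ligands and paired receptors, 4 were higher and 1 lower under poly I:C, and likewise 4 and 1 with PAM, with medians of 0.30 and 0.14. Beside the Pilrb genes, Pianp, a ligand of PILR alpha, fell by 1.18 ± 0.07 with poly I:C and by 1.36 ± 0.07 with PAM. Cd47, the ligand of SIRP alpha, singled out after its values were seen, rose by 0.89 with poly I:C and differed by 0.05 with PAM without passing. Thus with poly I:C the receptor gene Sirpa was lower and the ligand gene Cd47 higher.

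Of 14 inhibitory signalling partners, 3 were higher and 6 lower under poly I:C (median -0.09). With PAM 3 were higher and 8 lower, with a median of -0.52. Of the 14 genes 12 were coarse-stepped, and no share of genes matched for this was computed. Dok2, an adaptor of CD200R1, fell by 1.63 ± 0.08 with poly I:C and by 0.59 ± 0.08 with PAM. Rasa1, the Ras GTPase-activating protein that DOK adaptors recruit, fell by 1.13 ± 0.09 with poly I:C and by 0.91 ± 0.09 with PAM. The other DOK genes, given after their values were seen, differed: Dok1 did not pass with poly I:C (0.12) and fell by 0.60 with PAM, and Dok3 rose by 0.45 with poly I:C and did not pass with PAM (-0.04). Socs3, a feedback inhibitor of cytokine signalling that has been tied to Siglec turnover, rose by 2.25 ± 0.09 with PAM and did not pass with poly I:C (0.12). The phosphatase genes, also singled out after their values were seen, moved less: Ptpn6 (SHP-1) rose by 0.92 with poly I:C, and Ptpn11 (SHP-2) fell by 0.24 with poly I:C and rose by 0.22 with PAM.

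Of 12 activating adaptors and kinases, 5 were higher and 2 lower under poly I:C (median 0.10), and 6 were higher and 3 lower with PAM (median 0.23). Of these 12 genes 10 were coarse-stepped, and here too no share of genes matched for this was computed. Src, a tyrosine kinase gene, rose by 1.64 ± 0.07 with poly I:C and by 2.36 ± 0.07 with PAM. Lcp2, for the adaptor SLP-76, rose by 1.35 and 1.79, and Vav1, an exchange factor gene, by 0.97 and 0.60. Tyrobp, for the DAP12 adaptor used by the Cd200r4 product and chosen for that after its values were seen, fell by 0.46 with poly I:C and by 0.45 with PAM. It was lower in the poly I:C cells in which Cd200r4 was higher.

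Of 6 other Siglec genes, 2 were higher and 2 lower under poly I:C (median 0.05), and none was higher and 2 lower with PAM (median -0.02). Siglecf fell by 0.95 ± 0.08 with poly I:C and by 1.21 ± 0.08 with PAM, and Cd22 by 0.71 ± 0.10 and 0.83 ± 0.10. Siglecg rose by 0.32 ± 0.07 with poly I:C. None of 5 markers of eosinophils, cells known for Siglecf, passed with either ligand by limma. Of 7 markers of B cells, cells known for Cd22, 2 were higher with poly I:C and 3 with PAM. Among those higher were Cd79b (0.36 and 0.62) and Ms4a1 (0.44 and 0.51). None of these eosinophil and B cell markers was coarse-stepped. The part of such cells in the Siglecf and Cd22 values was not tested.

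Of 15 other inhibitory receptors, 6 were higher and 4 lower under poly I:C (median 0.04), and 2 were higher and 9 lower with PAM (median -0.53). Cd300a fell by 0.97 ± 0.07 with poly I:C and by 3.31 ± 0.07 with PAM. Klra2, of the Ly49 family, rose by 2.74 ± 0.09 and 0.89 ± 0.09, and Fcgr2b, the inhibitory Fc gamma receptor gene, by 0.77 ± 0.07 and 1.88 ± 0.07. Between the ligands 10 of the 15 were higher with poly I:C than under PAM and 2 were lower, with a median of 0.46. In that comparison 12.9% of all genes were higher and 15.8% lower, with a median of 0.01.

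Of 30 genes that make, transfer or remove sialic acid, the sugar that Siglecs bind, 6 were higher and 13 lower under poly I:C (median 0.0037). With PAM 4 were higher and 9 lower (median -0.07). St6gal1, which adds sialic acid in alpha-2,6 linkage, fell by 1.12 ± 0.12 with poly I:C and by 2.21 ± 0.12 with PAM. St8sia4, a polysialyltransferase gene, fell by 1.55 ± 0.08 with poly I:C and differed by -0.22 with PAM without passing. St3gal3, which adds sialic acid in alpha-2,3 linkage, fell by 0.48 ± 0.07 with poly I:C and rose by 1.46 ± 0.07 with PAM. Other genes of the same linkages, given after their values were seen, did not all share these directions. With poly I:C, St3gal5 (0.77), St3gal1 (0.71) and St3gal6 (0.70) rose, St3gal4 (-0.97) and St3gal2 (-0.74) fell, and St6gal2 (-0.13) did not pass. With PAM, St3gal1 (0.75) and St3gal5 (0.27) rose, St3gal4 (-0.77), St3gal6 (-0.32) and St3gal2 (-0.27) fell, and St6gal2 (-0.11) did not pass.

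**Figure D4:**
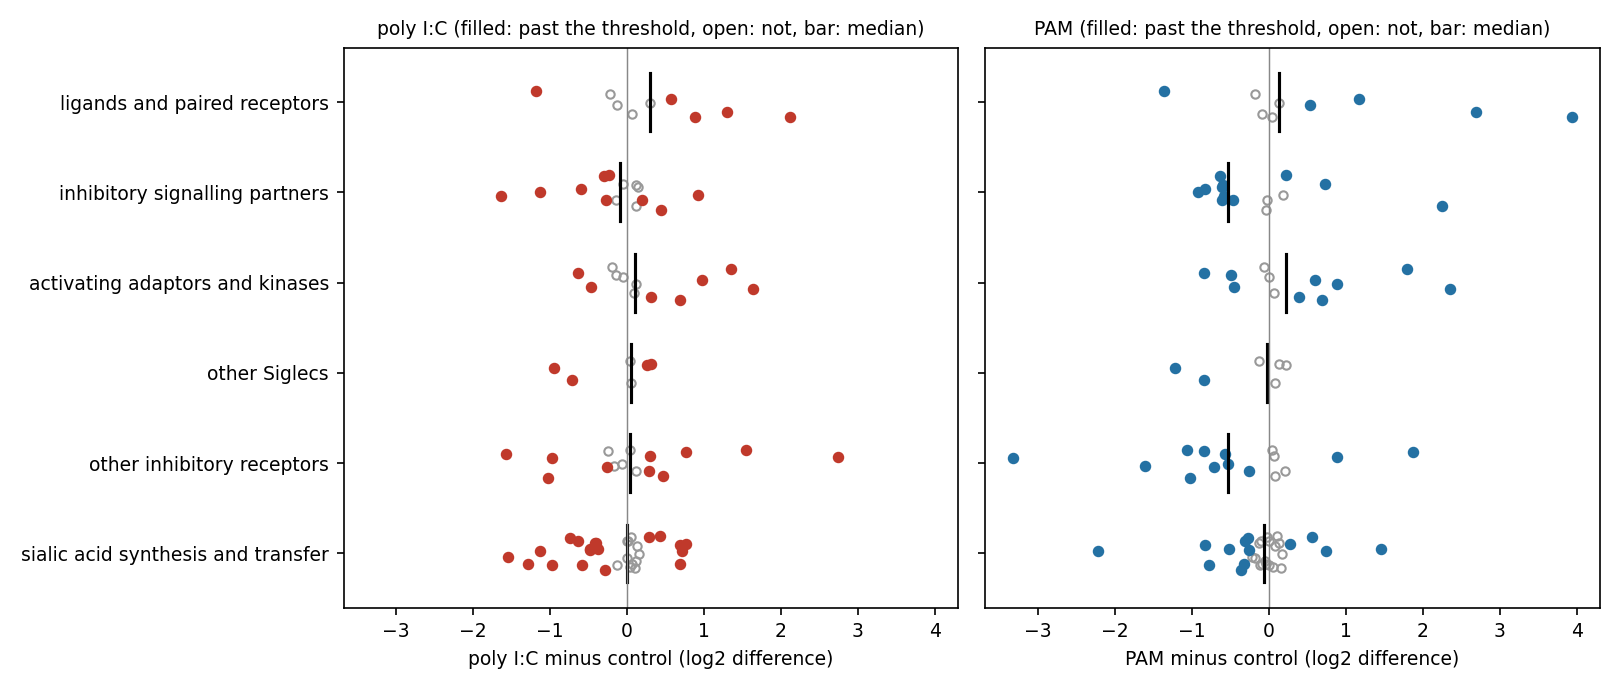
Log2 difference from control with poly I:C (left) and PAM (right) for each gene of 6 lists of partners (rows), on a shared horizontal axis. Filled points passed the threshold, open points did not, and bars are medians. With PAM the bars of inhibitory signalling partners and of other inhibitory receptors lie at -0.52 and -0.53, where the median over all genes was -0.0015. The lists were chosen with earlier results known and were not tested as sets.

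The remaining cell markers were as follows, and the shares of all genes given with the partner lists stand beside these counts too. Among macrophage markers 5 were higher and 4 lower with each ligand, with Prg4 at 0.55 with poly I:C and 3.08 with PAM. None of 7 T and NK cell markers passed by limma. Of 9 dendritic cell markers 2 were higher and 1 lower with each ligand, with Bst2, also an interferon-stimulated gene, at 3.47 and 1.75 and Tcf4 at -0.60 and -0.67. Of 10 mesothelial and fibroblast markers 4 were lower with poly I:C, among them Col3a1 (-0.69), and 3 with PAM, with Upk3b at -0.40 and -0.45. Their part in the values above was not tested.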

How the data were processed

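RNA was hybridised to Affymetrix arrays as biotin-labelled cRNA, per the labels' protocols. The authors deposited log2 values (base assumed) for 28815 probes on 6 arrays, with every probe's median over the arrays removed. Probe summary, background correction and normalization are not given in the sources consulted. The values were used as deposited, and array medians ran from -0.0049 to 0.0072. Probes with a single symbol in the platform annotation (21780) were averaged per gene, giving 19935 genes. Of these probes, 21689 were found by Entrez identifier in the RefSeq gene table, with 0 symbols changed.

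One mean per group was fitted with limma 3.58.1 in R 4.3.3 over all 6 arrays, with eBayes without a trend and Benjamini-Hochberg adjustment over all genes at 0.05. The members and all gene lists were chosen with earlier results of these data known, and no list was tested as a set. Genes named from the 6 partner lists were the 3 furthest from 0 with either ligand among those that passed, and from the 8 marker lists up to 2. The fit was checked on simulated data. Replicate arrays were not copies, since at most 14 genes had identical values, and the SD of their difference was 0.114 to 0.152. Number steps were read with a tolerance of 0.1 of a step, and a probe was called coarse-stepped where no array had finer steps than a value of 8 or above gives. Promoter windows are RefSeq's (GRCm38.p6), aligned locally with Biopython 1.88. Alternatives were array centring, a fit with a variance trend (plain or robust), a fit on the compared groups alone, a block for the replicate number, each array left out, each probe on its own, a 2-fold minimum, and only coarse-stepped genes.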

Additional observations from a re-analysis of the deposited data

Results flagged for a closer look

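For 6 genes both poly I:C arrays lay on one side of both control arrays and both PAM arrays on the other, and the direct comparison of the ligands passed. The difference, poly I:C minus PAM, was 2.91 ± 0.07 for Siglec1, 1.88 ± 0.07 for Cd200r4, 1.26 ± 0.08 for Cd200r2, 0.60 ± 0.08 for Cd200 and 0.45 ± 0.09 for Cd200r3, all higher with poly I:C, and -2.50 ± 0.07 for Cd33, which was lower. For Cd200r3 the PAM side rests on a difference of -0.09 ± 0.09 from control that did not pass. These genes were chosen with these contrasts known. The share of all genes with this arrangement was not computed, so nothing is read from the count of 6.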

How the results depend on the processing

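Leaving out an array of the third group repeats the 4-array fit and is counted once. Where a compared group keeps 1 array, that array is assumed to vary like the other groups. The other alternatives refit the same group means, moved slightly at most by array centring. They can change the error and the call but hardly the direction, which only leaving out an array of a compared group tests. The 2-fold minimum is given apart and is not among the 106 differences counted for each comparison. Between poly I:C and PAM, all 106 recomputed differences of the 10 genes kept their direction and their call in these alternatives. With poly I:C 99 of 106 did, and the 7 others, all lost calls, were 6 of Cd200 and 1 of Cd200r3. With PAM 103 of 106 did, 2 calls of Cd200r2 were lost, and the uncalled Sirpa difference changed sign without PAM replicate 1, ranging from -0.0282 to 0.0077 over single arrays left out. Requiring a 2-fold change left 3 higher and 0 lower members with poly I:C (the lowest difference was -0.85, whatever its p), 1 lower with PAM, and 3 higher between the ligands. For the lists it left 10 higher and 10 lower with poly I:C, 14 and 9 with PAM, and 12 and 13 between the ligands. For all genes it left 552 and 408, 452 and 386, and 517 and 474. Keeping only coarse-stepped genes, which removes 4 members, left 3 higher members with poly I:C, 3 lower with PAM and 3 higher between the ligands, with 20 list genes higher and 1531 higher and 2354 lower genes with poly I:C. Leaving out single arrays moved the genes lower with PAM between 1828, without PAM replicate 1, and 2839. The labels link same-numbered samples by the number alone and do not say whether they were paired. Their deviations correlated at -0.07 for poly I:C and control, 0.15 for PAM and control and -0.01 for poly I:C and PAM. With 1 replicate difference per group, these values cannot decide whether samples were paired. The replicate block gave 2412 higher and 3614 lower genes with poly I:C and changed no call of the 10 genes. With 2 arrays a group, their number limits precision, and signal over background is unknown.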
